A study of Mus musculus with 6 samples.

Results

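The genes described here are 10 mouse genes of antigen presentation by the major histocompatibility complex (MHC). They were chosen by symbol, as the class I heavy chains *H2-K1* and *H2-D1*, the class I light chain *B2m*, the peptide transporter genes *Tap1* and *Tap2*, the class II chains *H2-Aa*, *H2-Ab1* and *H2-Eb1*, the invariant chain *Cd74* and the class II transactivator *Ciita*. They are 10 of the 41709 genes in the deposited table, and all 10 were found there. The RNA came from tibialis anterior (TA) muscles of male C57BL/6J mice, collected 14 days after plasmid electroporation. In the LrpprcWT group (3 libraries) the plasmid encoded wild-type LRPPRC, a protein that binds mitochondrial messenger RNA, and in the LrpprcP27A group (3 libraries) it encoded LRPPRC with the P27A substitution, in which proline 27 is replaced by alanine. Both groups therefore carry an electroporated, Flag-tagged *Lrpprc* expressed from the viral CMV promoter on top of the endogenous gene, the 2 plasmids went into the contralateral muscles of the same animals, and no muscle without electroporation is in the series. The study used mice of 4 and 27 months, and the age of the mice behind these libraries is not given in the sources used here.

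MHC class I molecules pair a heavy chain with β2-microglobulin and carry peptides from inside the cell to the surface of nearly all nucleated cells, where cytotoxic T cells read them. The TAP transporter, made of TAP1 and TAP2, pumps these peptides into the endoplasmic reticulum. MHC class II molecules are made mainly by professional antigen-presenting cells such as dendritic cells, macrophages and B cells, and load peptides cut in lysosomes. The invariant chain CD74 fills the class II groove until that compartment is reached, and CIITA switches on class II genes through factors bound to their promoters. Resting muscle fibers are known to hold little class I and class II protein.

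Class II promoters are known for a conserved module in which an X box and a Y box lie a short distance apart, the docking site of the factors through which CIITA acts. The 100 bases before the start of the canonical transcript of each class II chain gene are shown because the 3 genes share this control and because their levels moved together below. They were read 5′ to 3′ on the strand of the gene from GRCm39, with canonical transcripts from the GENCODE annotation. Other annotated transcripts of *H2-Ab1* and *H2-Eb1* start earlier, so that their windows lie inside the gene spans given below. Capitals mark the letters GCAAC, the core of the X box, and ATTGG, the core of the Y box, on either strand (the reverse complement of ATTGG reads CCAAT).
H2-Aa, chr17:34506798-34506897, minus strand: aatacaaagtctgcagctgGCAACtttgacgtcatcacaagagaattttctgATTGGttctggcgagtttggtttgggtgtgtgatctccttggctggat
H2-Ab1, chr17:34482083-34482182, plus strand: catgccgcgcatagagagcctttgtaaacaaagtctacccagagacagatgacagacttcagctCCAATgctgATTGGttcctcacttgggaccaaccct
H2-Eb1, chr17:34524713-34524812, plus strand: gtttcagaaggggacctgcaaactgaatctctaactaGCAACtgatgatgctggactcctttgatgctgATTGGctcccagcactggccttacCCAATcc
GCAAC is followed by ATTGG on the same strand, at a gap of 28 bases in *H2-Aa* and 27 bases in *H2-Eb1*. Such a pair at a gap of 15 to 30 bases was found in the 250 bases before the canonical start of 2 of the 10 genes, these same ones, and in 0.685% of 21756 protein-coding promoters. Alone, ATTGG was in 6 of the 10 promoters and in 36.5% of all of them, and GCAAC in 5 of the 10 and in 29% of all, on either strand. GAAA repeated after any 2 bases, a short form of the interferon-stimulated response element, was in 0 of the 10 promoters and in 3.32% of all. TTCNNNGAA, the site form read by STAT factors, was in 2 of the 10 (*H2-D1* and *Ciita*) and in 7.7% of all. A match is a description of the letters, and no match says only that these letters are not in the window.

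Of the 10 genes, 7 lie on chromosome 17 in the mouse MHC, with *H2-K1* at one end (17:34214987-34219321, minus strand) and *H2-D1* at the other (17:35481691-35486475, plus strand). *B2m* lies on chromosome 2 (2:121977957-121983594, plus strand), *Ciita* on chromosome 16 (16:10297923-10347694, plus strand) and *Cd74* on chromosome 18 (18:60936899-60945731, plus strand). All positions are those of GRCm39. *Tap1* (17:34405996-34416199) and *Tap2* (17:34422501-34435829) are neighbors on the plus strand, followed by *H2-Ab1* (17:34476663-34488393, plus strand), *H2-Aa* (17:34493404-34506798, minus strand) and *H2-Eb1* (17:34504236-34535648, plus strand). The spans of *H2-Aa* and *H2-Eb1* overlap by 2563 bases on opposite strands.

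The values are TPM, which give a gene's share of all transcripts in a library after correction for transcript length, so that levels can be set side by side between genes. TPM keeps no read depth, and no counting error can be given. With LrpprcWT, mean levels ran in the order *B2m* (525 TPM), *Cd74* (229 TPM), *H2-D1* (204 TPM), *H2-K1* (137 TPM), *H2-Eb1* (72.3 TPM), *H2-Ab1* (62.3 TPM), *H2-Aa* (41.9 TPM), *Tap2* (10.8 TPM), *Tap1* (4.99 TPM) and *Ciita* (0.551 TPM). The order was the same with LrpprcP27A. The neighbors *Cd74* and *H2-D1* did not separate, with *Cd74* the higher in 4 of 6 libraries. *H2-D1* and *H2-K1*, *H2-Eb1* and *H2-Ab1*, and *H2-Ab1* and *H2-Aa* overlapped over the LrpprcWT libraries, although within each of the 6 libraries the first of each pair was the higher. The other neighbors did not overlap in either group.

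All 10 genes had a lower mean with LrpprcP27A than with LrpprcWT, and each was lower in all 3 contralateral pairs. For a gene whose groups do not overlap, a fall in every pair follows from that. A lower value was common, since 88.0% of all tested genes had a log2 fold change below 0. The ratio of the means lay between 0.467 (*B2m*) and 0.591 (*Ciita*). With limma on log2(TPM + 1), and p-values adjusted over the 11611 genes with a mean of at least 1 TPM, 9 of the 9 genes tested fell at an adjusted p under 0.05 and 0 rose (0 also at an unadjusted p under 0.05). A Kruskal-Wallis test called 0 in either direction, since its adjusted p cannot pass with 3 against 3 libraries. *Ciita* was below the minimum level and was not in this test. The background is broad, since 23.3% of all tested genes were called lower and 1.34% higher, and the median log2 fold change of all tested genes was -0.32. The median of the 9 genes was -0.99, which is -0.67 relative to the median of all tested genes. The groups did not overlap for 9 of the 10 genes, the exception being *Tap1*, and 47.6% of all tested genes were lower without overlap. No exact permutation test of a single gene can go below p = 0.1 with 3 against 3 libraries. In whole muscle, fewer cells of a type and less RNA per cell cannot be told apart.

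**Figure D1:**
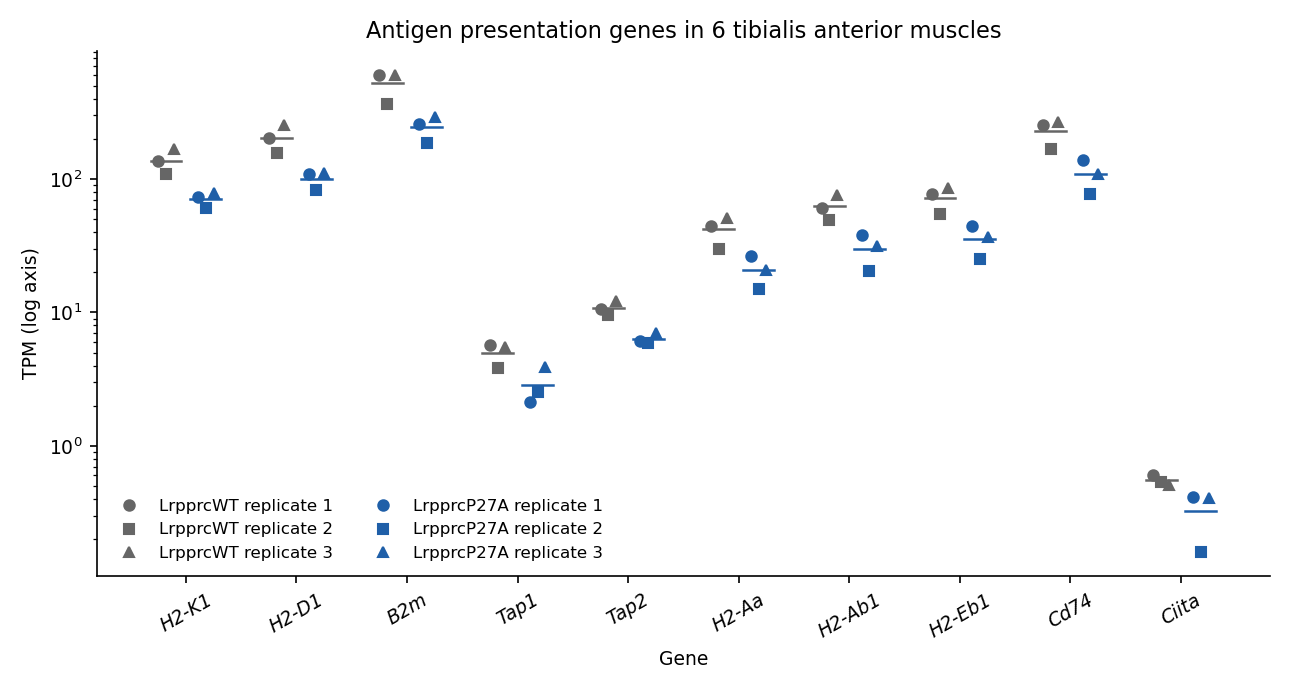
TPM on a log axis of each of the 10 antigen presentation genes in the 3 LrpprcWT and the 3 LrpprcP27A libraries. Each point is 1 library and the horizontal lines are the group means. For every gene but Tap1 the LrpprcP27A libraries lie below all LrpprcWT libraries.

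The class I chains each fell by about 1 on the log2 scale. *H2-K1*, one of the classical heavy chains of C57BL/6 mice, was at 137, 108 and 167 TPM in LrpprcWT replicates 1, 2 and 3, and at 73.9, 61.1 and 78.4 TPM in LrpprcP27A replicates 1, 2 and 3. The highest LrpprcP27A library was below the lowest LrpprcWT library. Its log2 fold change was -0.93 (SE 0.17, limma adjusted p = 0.016). *H2-D1*, the other classical heavy chain, was at 201, 156 and 253 TPM with LrpprcWT and at 109.6, 82.0 and 111 TPM with LrpprcP27A. Again the groups were apart, and replicate 2 was the lowest library of both. Its log2 fold change was -0.99 (SE 0.19, adjusted p = 0.0168). *B2m*, which encodes the light chain shared by both heavy chains and by class I-like molecules, was at 606, 366 and 603 TPM with LrpprcWT and at 257, 187 and 291 TPM with LrpprcP27A. LrpprcWT replicate 2 stood well below the other LrpprcWT libraries, yet above every LrpprcP27A library. Its log2 fold change of -1.08 (SE 0.22, adjusted p = 0.0205) was lower than that of all but 4.13% of tested genes.

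The transporter genes were far below the class I chains in TPM and had the smallest log2 fold changes of the 9 genes tested. *Tap2* was at 10.6, 9.61 and 12.1 TPM with LrpprcWT and at 6.13, 5.93 and 7.01 TPM with LrpprcP27A. The groups were apart and the libraries of each were close together. Its log2 fold change was -0.68 (SE 0.14, adjusted p = 0.0193). *Tap1* was at 5.69, 3.83 and 5.46 TPM with LrpprcWT and at 2.13, 2.51 and 3.89 TPM with LrpprcP27A. Here the groups overlapped, as LrpprcP27A replicate 3 was above LrpprcWT replicate 2. Its log2 fold change was -0.65 (SE 0.21, adjusted p = 0.0492), and the exact permutation test of its TPM values gave p = 0.2.

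The class II genes fell by a similar amount. *H2-Aa*, the α chain of the A molecule, was at 44.5, 30.1 and 51.1 TPM with LrpprcWT and at 26.4, 14.9 and 20.8 TPM with LrpprcP27A. The lowest LrpprcWT library was only a little above the highest LrpprcP27A library. *H2-Ab1*, its β chain partner, was at 61.1, 49.7 and 76.2 TPM with LrpprcWT and at 38.1, 20.6 and 31.3 TPM with LrpprcP27A, and the groups were apart. The log2 fold changes were -0.99 for *H2-Aa* (SE 0.24, adjusted p = 0.0267) and -1.05 for *H2-Ab1* (SE 0.23, adjusted p = 0.0228).

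*H2-Eb1* encodes the β chain of the E molecule, whose α chain gene *H2-Ea* is not functional in C57BL/6 mice. *H2-Ea* was listed at 0 in all 6 libraries. *H2-Eb1* itself was at 76.5, 55.0 and 85.3 TPM with LrpprcWT and at 44.2, 25.3 and 36.8 TPM with LrpprcP27A, without overlap. Its log2 fold change was -1.02 (SE 0.22, adjusted p = 0.0227). *Cd74* was at 252, 168 and 266 TPM with LrpprcWT and at 139, 77.5 and 108 TPM with LrpprcP27A, again without overlap. It had the largest log2 fold change of the 9 genes tested by a narrow margin over *B2m*, -1.08 (SE 0.23, adjusted p = 0.0221). *Ciita* was at 0.607, 0.536 and 0.509 TPM with LrpprcWT and at 0.411, 0.160 and 0.405 TPM with LrpprcP27A. Its groups did not overlap, but its mean over all libraries was 0.438 TPM. When the filter was left off and 21450 genes were tested, its log2 fold change was -0.23 with an adjusted p of 0.136.

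The libraries of a group were ordered alike for most of these genes. With LrpprcWT, replicate 2 was the lowest library for 9 of the 10 genes, and summed over the 10 it held 947 TPM against 1395 and 1520 TPM in replicates 1 and 3. With LrpprcP27A, replicate 2 was again the lowest (477 TPM summed, against 697 and 689 TPM), for every gene but *Tap1*. A low replicate 2 was not particular to these genes. The median-of-ratios factor of a library, which follows its typical gene, was 0.981 for LrpprcWT replicate 2, against 1.27 and 1.28 for replicates 1 and 3. With LrpprcP27A it was 0.831 for replicate 2, against 0.896 and 0.887. Replicate 1 was the highest LrpprcP27A library for *H2-Aa*, *H2-Ab1*, *H2-Eb1*, *Cd74* and *Ciita*, and replicate 3 for the class I chains, *Tap1* and *Tap2*. In the first pair *B2m* was at 0.424 of its LrpprcWT level and *H2-Ab1* at 0.623, and in the third pair these ratios were 0.482 and 0.411.

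**Figure D2:**
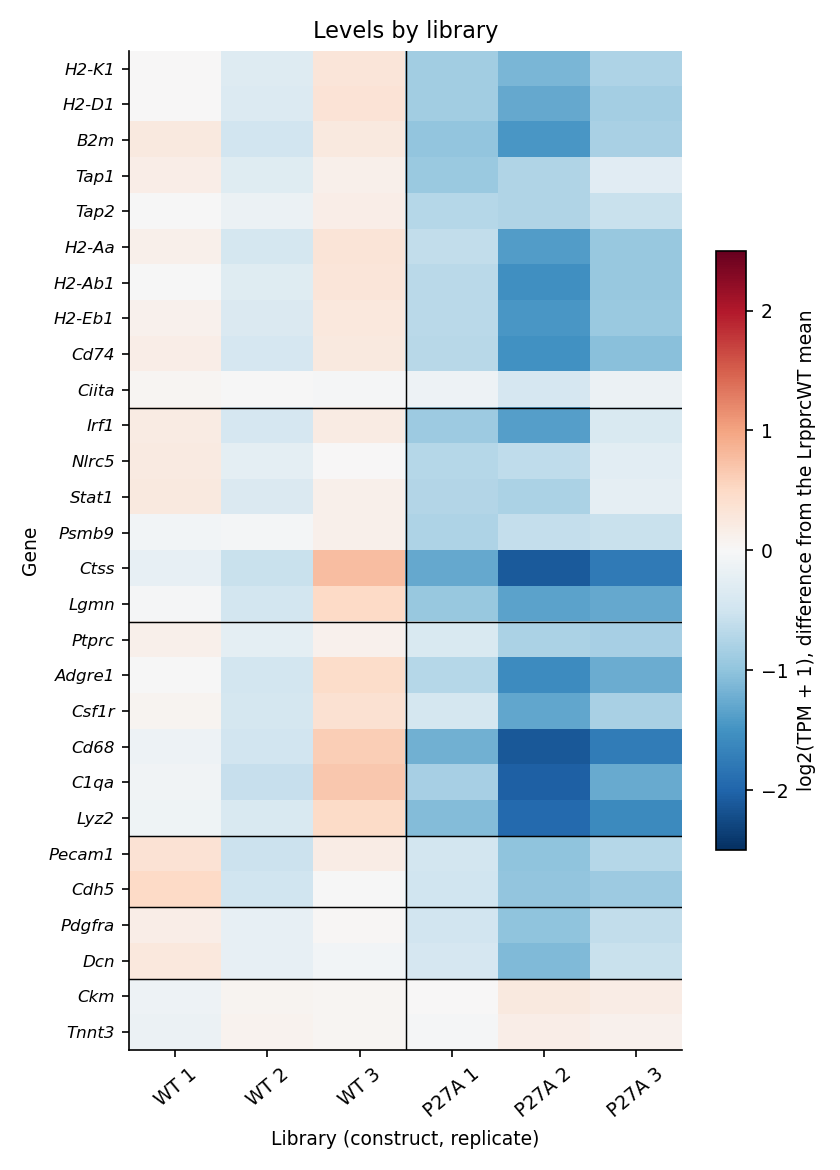
Color gives log2(TPM + 1) in each library as the difference from that gene's LrpprcWT mean, for the 10 genes (top block) and, below, other pathway genes and markers of macrophages, endothelium, fibroblasts and muscle fibers. For the 10 genes the LrpprcP27A columns are below 0, with replicate 2 the lowest for every gene but Tap1, and among the LrpprcWT columns replicate 2 is the lowest for 9 of the 10 genes.

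Within a library the chains of each class kept similar proportions in both groups. The ratio of *H2-D1* to *H2-K1* was 1.48 ± 0.0346 (SD, n = 3) with LrpprcWT and 1.41 ± 0.0707 (SD, n = 3) with LrpprcP27A, with overlap. *Cd74* was at 1.29 ± 0.0764 times the sum of the 3 class II chains with LrpprcWT and 1.26 ± 0.0340 times with LrpprcP27A, with overlap. The ratio of *H2-Ab1* to *H2-Aa* was 1.51 ± 0.141 and 1.44 ± 0.0643, and that of *H2-Eb1* to *H2-Aa* was 1.74 ± 0.0823 and 1.71 ± 0.0485, so that the class II chains fell together. The sum of the 3 class II chains was 0.518 ± 0.0181 of the sum of *H2-K1* and *H2-D1* with LrpprcWT and 0.495 ± 0.0866 with LrpprcP27A, where the LrpprcP27A libraries spread more widely (0.592, 0.425 and 0.470). None of these ratios separated the groups, and with 3 libraries each a difference smaller than this spread could not have been seen.

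The other genes of the pathway were examined from lists of their roles, which together hold 56 genes besides the 10, of which 43 were tested. Of these, 23 fell and 0 rose (0 also at an unadjusted p under 0.05), beside the 23.3% of all tested genes called lower. Of the 43, 41 had a log2 fold change below 0, as did 88.0% of all tested genes. Among the 23, *Cd1d1* and *Socs1* passed the minimum level only through the LrpprcWT libraries. Their median was -0.58, against -0.32 for all tested genes. Treating same-numbered libraries as pairs, 33 of the 43 fell, against 48.4% of all tested genes. With median-of-ratios scaling 3 fell, 1 rose and 30 were below 0. Of all tested genes, 5.81% fell, 6.83% rose and 44.9% were below 0 on that scale.

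Of the 12 class I heavy chain and class I-like genes tested, 10 fell, *H2-K1* and *H2-D1* among them, beside 23.3% of all tested genes. With median-of-ratios scaling 3 of the 12 fell, beside 5.81% of all tested genes. *H2-M3*, a nonclassical molecule that presents formylated peptides, went from 4.78 ± 1.02 TPM with LrpprcWT to 2.17 ± 0.423 TPM with LrpprcP27A (SD, n = 3 each, log2 fold change -0.86, limma adjusted p = 0.0208). *H2-Q7* fell by 0.81 on the log2 scale (adjusted p = 0.0209), *H2-Q6* by 0.74 (adjusted p = 0.0202) and *Cd1d1*, which presents lipids, by 0.74 (adjusted p = 0.0291). *Cd1d1* was at 1.55 TPM with LrpprcWT and 0.531 TPM with LrpprcP27A. It passed the minimum level only through the LrpprcWT libraries, so that it was bound to be lower and its call is no support for a fall. *Mr1*, which presents vitamin metabolites of microbes, was at 8.91 ± 1.29 and 10.4 ± 2.05 TPM, with overlap and an adjusted p of 0.366. *H2-T24* was at 2.60 ± 0.102 and 1.73 ± 0.228 TPM, with an adjusted p of 0.0558.

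Of the 9 genes of the class I light chain and peptide loading, 7 fell, *B2m*, *Tap1* and *Tap2* among them, beside 23.3% of all tested genes. With median-of-ratios scaling 1 of the 9 fell, beside 5.81% of all tested genes. *Pdia3*, the oxidoreductase of the loading complex, had the largest change outside these (62.2, 43.4 and 79.5 TPM with LrpprcWT, 31.2, 21.7 and 34.6 TPM with LrpprcP27A), a log2 fold change of -1.04 (adjusted p = 0.0245). The chaperones *Calr* (log2 fold change -0.65, adjusted p = 0.0339) and *Canx* (-0.60, adjusted p = 0.0416) and the TAP-binding tapasin gene *Tapbp* (-0.62, adjusted p = 0.0298) also fell. *Erap1*, the peptidase that trims peptides, was at 5.37 ± 1.21 and 4.45 ± 0.283 TPM (adjusted p = 0.329), and the tapasin-related *Tapbpl* at 3.70 ± 0.641 and 2.89 ± 0.322 TPM (adjusted p = 0.189), both with overlap. In the immunoproteasome, the interferon-inducible form of the proteasome that cuts peptides for class I, the catalytic subunit genes *Psmb8* (log2 fold change -0.67, adjusted p = 0.0239) and *Psmb9* (-0.64, adjusted p = 0.0226) fell, 2 of 5 tested. The activator subunits *Psme1* (-0.39, adjusted p = 0.0536) and *Psme2* (-0.43, adjusted p = 0.0638) did not pass. With median-of-ratios scaling 0 of the 5 immunoproteasome and activator genes fell.

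All 3 tested genes of class II loading fell, counting *Cd74*, beside 23.3% of all tested genes. With median-of-ratios scaling 0 of the 3 fell, beside 5.81% of all tested genes. *H2-DMb1* and *H2-DMa* encode the DM molecule that exchanges the invariant chain fragment for peptide. *H2-DMb1* went from 8.86 ± 1.57 to 4.31 ± 1.33 TPM (log2 fold change -0.91, adjusted p = 0.0247) and *H2-DMa* from 3.75 ± 0.773 to 2.07 ± 0.256 TPM (-0.62, adjusted p = 0.0312). All 4 lysosomal processing genes fell too, and 2 of the 4 did with median-of-ratios scaling. *Ctss*, the cathepsin that cuts the invariant chain in antigen-presenting cells, was at 46.8, 36.3 and 93.0 TPM with LrpprcWT and at 21.8, 11.8 and 15.3 TPM with LrpprcP27A. With a log2 fold change of -1.71 (SE 0.33, adjusted p = 0.0173) it had the largest change of the tested pathway genes, and LrpprcWT replicate 3 stood above the others. The legumain gene *Lgmn* (-1.19, adjusted p = 0.0168), the lysosomal thiol reductase gene *Ifi30* (-0.98, adjusted p = 0.0209) and *Ctsl* (-0.65, adjusted p = 0.0249) followed. *Marchf8*, a ubiquitin ligase that removes class II from the surface, was at 8.20 ± 1.42 and 6.82 ± 0.707 TPM, with overlap and an adjusted p of 0.267.

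For the genes that control the pathway, too, the background is the 23.3% of all tested genes that fell. Of 7 tested transactivator and promoter factor genes, 1 fell, *Rfxank*, a subunit of the complex on the X box (log2 fold change -0.52, adjusted p = 0.0379). With median-of-ratios scaling 0 of the 7 fell. *Rfxap*, another subunit of that complex, was at 12.8 ± 1.33 and 11.5 ± 0.342 TPM (adjusted p = 0.382), and *Nfyc*, a subunit of the factor that binds the Y box, at 28.7 ± 4.18 and 21.4 ± 2.27 TPM (adjusted p = 0.0627). *Nlrc5*, the class I counterpart of *Ciita*, was added after its values were seen. It was at 1.92 ± 0.483 and 1.02 ± 0.347 TPM without overlap, with an adjusted p of 0.0598, or 0.01 with the replicate block. The block called 48.4% of all tested genes lower, and 47.6% were lower without overlap. With median-of-ratios scaling its adjusted p was 0.221, or 0.193 with the block. On the interferon γ axis, which induces both classes, 2 of 8 tested genes fell. With median-of-ratios scaling 0 of the 8 fell and 1 rose. *Irf1*, a transcription factor of class I genes, was at 12.2, 7.52 and 12.2 TPM with LrpprcWT and at 5.09, 3.39 and 7.75 TPM with LrpprcP27A, with overlap (log2 fold change -0.89, adjusted p = 0.0439). *Socs1*, a feedback inhibitor of the pathway, was at 1.57 ± 0.655 and 0.459 ± 0.00628 TPM (-0.79, adjusted p = 0.0282, or 0.102 with median-of-ratios scaling). Its mean over all libraries was 1.02 TPM, so that it passed the minimum level only through the LrpprcWT libraries. A gene that passes in this way is bound to be lower with LrpprcP27A, so that its call is no support for a fall. The receptor subunit gene *Ifngr2* was at 33.5 ± 1.35 and 30.8 ± 0.937 TPM (adjusted p = 0.370), and the kinase gene *Jak1* at 46.3 ± 4.86 and 44.4 ± 4.99 TPM (adjusted p = 0.724).

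The cell type markers place these values in the tissue. The 8 muscle fiber markers were at sums of 119342 to 132250 TPM with LrpprcWT and 108304 to 122058 TPM with LrpprcP27A, and 2 of them fell. Among the macrophage, dendritic cell and B cell lists, the macrophage markers had the highest sum. Sums over lists of unlike genes do not compare numbers of cells. All 10 of 10 macrophage markers were tested and fell (median log2 fold change -1.27), with sums of 316 to 634 TPM with LrpprcWT and 106 to 216 TPM with LrpprcP27A, and no marker was at 0. Dendritic cell markers had sums of 8.86 to 12.9 and 5.12 to 8.50 TPM (1 of 3 tested of 9 fell), and B cell markers 2.64 to 4.58 and 1.69 to 3.34 TPM (0 of 2 tested of 5 fell). T cell markers had sums of 3.35 to 4.35 and 1.18 to 2.25 TPM (0 of 1 tested of 7 fell). NK cell markers had sums of 0.995 to 1.503 and 0.284 to 0.892 TPM (0 of 4 tested), and neutrophil markers 31.4 to 52.6 and 23.8 to 37.2 TPM (0 of 3 tested of 4 fell). Endothelial markers, of cells that carry class I, had sums of 164 to 298 and 122 to 168 TPM (2 of 6 fell), and fibroblast markers 816 to 1357 and 215 to 468 TPM (5 of 6 fell). Beside these counts stand the 23.3% of all tested genes that fell. *Ptprc*, among the macrophage markers, and *Itgax*, the dendritic cell marker that fell, were at 0.708 and 0.660 TPM with LrpprcP27A. Both passed the minimum level only through the LrpprcWT libraries, so that they were bound to be lower. With median-of-ratios scaling 4 of the 10 macrophage markers fell (median -0.90), 3 of the 6 fibroblast markers and 0 of the 6 endothelial markers. Of the 8 muscle fiber markers 0 fell and 0 rose on that scale (median 0.24). There 5.81% of all tested genes fell. The part of these cell types in the lower antigen presentation genes was not tested.

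Set against macrophage genes within each library, the class II chains gave different pictures by marker. Per unit of *Csf1r*, the receptor on which macrophages depend, the sum of the 3 chains was 20.7 ± 1.81 with LrpprcWT and 20.1 ± 1.67 with LrpprcP27A, with overlap. Per unit of *Cd68*, a lysosomal glycoprotein gene, it was 8.35 ± 1.62 and 14.5 ± 1.72, higher in every LrpprcP27A library. Per unit of all 10 macrophage markers it was 0.404 ± 0.0608 and 0.549 ± 0.0410, also without overlap. The sum of these markers is weighted to its highest genes, *Lyz2* (256 TPM with LrpprcWT), *C1qa* (71.6 TPM) and *C1qb* (64.5 TPM). Per unit of *Ptprc*, which was at 0.708 TPM with LrpprcP27A, the sum of the 3 chains was 105 ± 9.79 and 129 ± 39.3, with overlap. The sum of *H2-K1* and *H2-D1* was 0.779 ± 0.101 and 1.14 ± 0.262 per unit of the 10 macrophage markers. The groups were apart only narrowly, at 0.837 in the highest LrpprcWT and 0.848 in the lowest LrpprcP27A library. Per unit of the 6 endothelial markers the sum of *H2-K1* and *H2-D1* was 1.54 ± 0.370 and 1.25 ± 0.210, with overlap. Where the ratios did not overlap, the exact permutation p is the smallest that 3 against 3 allow, 0.1.

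**Figure D3:**
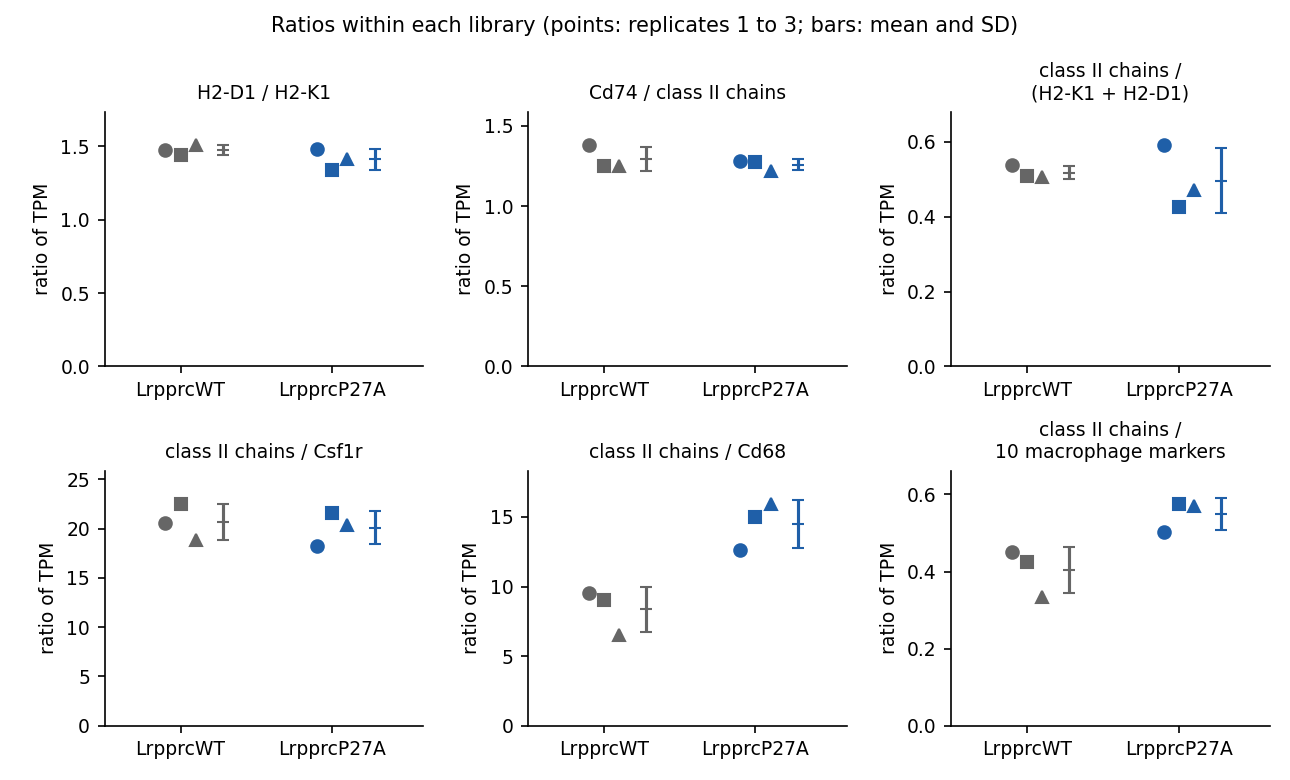
Ratios of TPM within each library for the class I and class II genes and for macrophage markers, with points for replicates 1 to 3 and bars for the mean and SD. Ratios between antigen presentation genes and to Csf1r overlap between the groups, and those to Cd68 and to the 10 macrophage markers are higher in all LrpprcP27A libraries.

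The genes whose levels followed these most closely were taken from all tested genes by Pearson correlation over the 6 libraries, as a description of points that share the same libraries and scale. The mean log2 level of *H2-K1*, *H2-D1* and *B2m* was followed by *Lipa*, the lysosomal acid lipase gene (r = 0.9996), *Smagp* (r = 0.9993) and the interferon-induced *Ifitm3* (r = 0.9986). That of *H2-Aa*, *H2-Ab1*, *H2-Eb1* and *Cd74* was followed by the growth factor gene *Tgfb1* (r = 0.9979), *Gm50253* (r = 0.9978) and *Shisa5* (r = 0.9969). Such values were common, with r above 0.95 for 1950 genes in the first case and 1314 in the second, so that these names are not set apart from many others.

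How firmly these calls hold depends on the scale and on single libraries. Because most genes were lower, median-of-ratios scaling, which sets a typical gene to no change, moved the median of all tested genes from -0.32 to 0.04 and that of the 9 genes to -0.58. All 9 still had a log2 fold change below 0, as did 44.9% of all tested genes. Of the 9, 3 (*H2-K1*, *H2-D1* and *B2m*) fell at an adjusted p under 0.05 and 0 rose. Of all tested genes, 5.81% fell and 6.83% rose. With the replicate block on the same scale 8 fell, all but *Tap1*, and 0 rose, where 14.1% of all tested genes fell and 17.2% rose. Quantile normalization left the same 3 (4.46% of all tested genes fell and 4.25% rose), and rescaling over nuclear protein-coding genes left *H2-K1*, *H2-D1* and *Tap2* (5.46% fell). With no filter 0 of the 10 fell, where 0.196% of 21450 genes did.

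Single libraries also decided the calls. Without LrpprcWT replicate 1 or replicate 3, 0 of the 9 passed, and few genes did at all (2.51% and 0.129% called lower). Without LrpprcWT replicate 2 all 9 passed, beside 59.5% of all tested genes. Without LrpprcP27A replicates 1, 2 and 3 in turn there were 8, 6 and 3 that passed, beside 14.5%, 4.34% and 3.79% of all tested genes. All 9 stayed below 0 in each case, as did 85.4% to 89.2% of all tested genes. The median of the 9 lay between -1.20 and -0.81.

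**Figure D4:**
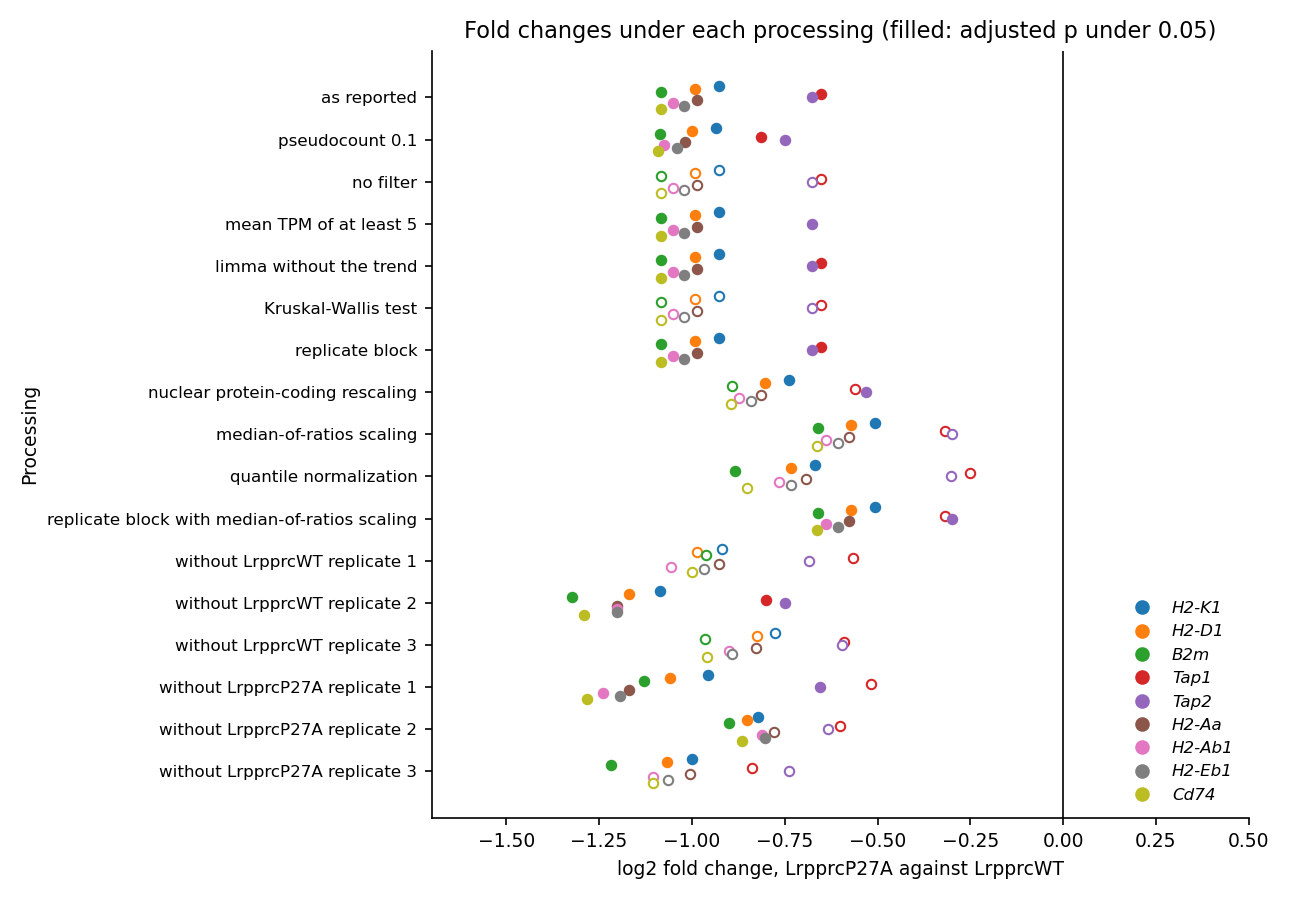
log2 fold change of the 9 tested genes under each way of scaling, filtering and testing and with each library left out, 1 line a setting, with filled points at an adjusted p under 0.05. All points lie below 0, and no point is filled without LrpprcWT replicate 1 or 3, without the filter or by the Kruskal-Wallis test.

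Some reads of these genes could be shared with others. Of the stretches of 100 bases in the *H2-K1* transcript, 15.1% also occur in an overlapping noncoding gene and 0% in another H2 gene. For *H2-D1*, 26.6% were shared, 22% with an antisense gene and 4.61% with other H2 genes. *Tap1* shared 8.82% with *Psmb9*, which overlaps its start, and *Tap2* shared 4.62%. *B2m*, *H2-Aa*, *H2-Ab1* and *Cd74* shared 0%, and these 4 genes had log2 fold changes from -0.99 to -1.08. *H2-Q7* shared 32.6%, 21.9% with other H2 genes, and *H2-Q6* shared 20.6%, 9.83% with other H2 genes, so that their values are uncertain. Whether counting used the strand is not given in the sources used here, so that reads of a gene and of its antisense partner cannot be told apart.

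*Lrpprc* itself, in which plasmid and endogenous transcripts are counted together, was at 35.1, 37.0 and 75.2 TPM with LrpprcWT and at 26.9, 29.7 and 26.0 TPM with LrpprcP27A (log2 fold change -0.72, adjusted p = 0.0652, or 0.00243 with the replicate block). Without LrpprcWT replicate 3 the log2 fold change was -0.38 (adjusted p = 0.113), and it was -0.31 with median-of-ratios scaling (adjusted p = 0.402, or 0.295 with the replicate block). LrpprcWT replicate 3 stood apart there. Without it 0 of the 9 antigen presentation genes passed, and the same held without LrpprcWT replicate 1, where *Lrpprc* was at 35.1 TPM. A link between the *Lrpprc* level and these calls was not tested. Between 18603 and 19053 genes were above 0 TPM in the LrpprcWT libraries and between 17774 and 18197 in the LrpprcP27A libraries.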

How the data were processed

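Messenger RNA of 6 TA muscles was sequenced with paired reads of 100 bases. Per the study's methods the authors trimmed the reads by quality (20) and length (50 bases), mapped them with CLC Genomics Workbench (build GRCm39). The deposited unit is TPM, 1 column a library. TPM keeps no depth, so its precision cannot be given. The replicates of a group come from different mice, per the study's methods.

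Genes with a mean of at least 1 TPM (11611 of 41709) were compared on log2(TPM + 1) with limma 3.58.1 in R 4.3.3, with a trend and Benjamini-Hochberg adjustment, two-sided. Adding 1 understates changes of low genes. Same-numbered libraries are taken as contralateral muscles of 1 mouse. Their deviations from the group means correlated by 0.363, 0.528 and 0.356. These values do not test the pairing, since libraries of different numbers were not compared. The 10 genes, the lists and the alternatives were chosen with earlier results of these data known. Named besides the 10 genes and *Lrpprc* were, per list, at most 4 genes that passed by the largest change and at most 2 that did not by the highest level, and the 3 genes most like each class. Promoters and shared stretches came from GRCm39 with the GENCODE annotation, which held the symbols of 37033 genes. The alternatives were a pseudocount of 0.1, no filter, a minimum of 5 TPM, limma without the trend, a Kruskal-Wallis test, the replicate block, 3 other scalings and each library left out.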

Additional observations from a re-analysis of the deposited data

How the results depend on the processing

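The 9 tested genes stayed below 0 in log2 fold change under every alternative run. The share of all tested genes below 0 ran from 44.7% (quantile normalization) to 89.2% (without LrpprcWT replicate 2). On the deposited scale all 9 fell and 23 other pathway genes fell, beside 23.3% of all tested genes. A pseudocount of 0.1 (23.8% of all tested genes fell) and limma without the trend (22.6%) kept both numbers within 1.5 times. So did a minimum of 5 TPM (8 of the 9 and 29 others tested, 22% of all fell) and the replicate block (9 and 33, 48.4% of all fell). Without the filter 0 of the 10 and 0 of the others passed (10 of 10 at an unadjusted p under 0.05), with more low genes in the adjustment and 0.196% of all genes called lower. By the Kruskal-Wallis test 0 and 0 passed (8 unadjusted), and its adjusted p cannot pass with 3 against 3. Rescaling over nuclear protein-coding genes left 3 and 8, beside 5.46% of all tested genes. Quantile normalization left 3 and 5 and 1 other rose, where 4.46% of all tested genes fell and 4.25% rose. Median-of-ratios scaling left 3 and 3 and 1 other, *Jak2*, rose, where 5.81% of all fell and 6.83% rose. The median of the 9 genes was then -0.58. The replicate block with median-of-ratios scaling gave 8 and 15, with the median at -0.58, and 4 others rose (*Mr1*, *Ifngr2*, *Jak1* and *Jak2*, named after their values were seen). In that fit 14.1% of all tested genes fell and 17.2% rose. Leaving out 1 library at a time gave 0 to 9 of the 9 genes and 0 to 36 of the others lower, beside 0.129% to 59.5% of all tested genes. The most fell without LrpprcWT replicate 2 and none of either without LrpprcWT replicate 3. The median of the 9 genes ran from -1.20 to -0.81. The causes were not tested.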

Other observations

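The costimulators with which antigen-presenting cells prime T cells were too low to be tested. *Cd86* was at 1.75, 0.528 and 1.49 TPM with LrpprcWT and at 0.411, 0.195 and 0.445 TPM with LrpprcP27A, without overlap. *Cd80* was at 0.730 ± 0.305 and 0.191 ± 0.0748 TPM (SD, n = 3 each), also without overlap, and *Cd40* at 0.790 ± 0.380 and 0.450 ± 0.187 TPM, with overlap. Of all tested genes, 47.6% were lower without overlap. That share holds only genes with a mean of at least 1 TPM, and none was worked out for genes as low as these.

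The same holds for the low genes of class II loading. *H2-DMb2*, a second DM β chain gene, was at 1.35 ± 0.419 and 0.513 ± 0.163 TPM. *H2-Oa* and *H2-Ob*, which encode the DO molecule that restrains DM, were at 0.406 ± 0.0904 and 0.156 ± 0.0412 TPM and at 0.463 ± 0.0440 and 0.276 ± 0.0836 TPM. None of these 3 genes overlapped between the groups, and none was tested, since each had a mean below 1 TPM. The 47.6% of tested genes that were lower without overlap is no background for genes this low, so that the separation is a description only. *H2-DMb2* shares 13.1% of its stretches of 100 bases with *H2-DMb1*, so that its value is uncertain.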
